A study of Mus musculus with 4 samples.

Results

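The Il9 locus was described here by the ATAC-seq peaks within the RefSeq record of Il9 and 60 kb on each side of it. Il9 lies on the reverse strand of chromosome 13, from 56479277 to 56482257 on mm10 (GRCm38), and the window ran from 56419277 to 56542257. Peaks of the 4 lists that shared at least 1 base were merged, which gave 11 elements in the window of 93679 merged regions in the whole data. ATAC-seq marks open chromatin by the insertion of sequencing adapters where DNA is not wrapped in nucleosomes. The cells were naive CD4+ T cells (CD62LhighCD44lowCD25-) sorted from the spleen of wild-type male C57BL/6 mice 7 weeks old. For 48 h all of them received antibodies to CD3 at 5 µg/ml and to CD28 at 1 µg/ml, with IL-2 at 10 ng/ml and TGF-β1 at 5 ng/ml. Cells without IL-4 gave 2 libraries, and cells with 15 ng/ml of mouse IL-4 gave 2. The study describes its ATAC-seq samples as pooled and biologically independent, so that the unit of each test was a pool and not a mouse. The libraries were made from the whole culture, in which the share of cells that made IL-9 was not analysed here, and a change in that share cannot be told apart from a change in each cell.

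IL-9 is a cytokine that acts on mast cells, epithelial cells and T cells, and it is the signature product of Th9 cells. Naive CD4+ T cells take this fate when they receive TGF-β together with IL-4, whereas TGF-β with IL-2 alone leads to Foxp3+ Tregs. IL-4 acts through its receptor and STAT6, TGF-β through SMAD proteins, and IL-2 through STAT5, and these signals meet at Il9 with PU.1, IRF4, BATF and other activation-induced factors. Enhancers upstream and downstream of the gene, known as conserved noncoding sequences, have been described in Th9 cells. Whether the elements below act as enhancers was not measured here, and they are called by number, from element 1 at the downstream end of the window to element 11 at the upstream end.

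The sequences of 5 elements are shown because the results turn on them: the element at the promoter, the pair of strongest elements between genes, the element with the largest ratio of heights with IL-4 over without among the 6 shared ones, and the nearest distal element upstream. Each is the 200 bases around the centre of the element, on the strand of Il9 and from 5′ to 3′, read from GRCm38. Capitals mark matches to the motifs searched, which are described further on.
Element 10 (chr13:56507185-56507384, 25.0 kb upstream): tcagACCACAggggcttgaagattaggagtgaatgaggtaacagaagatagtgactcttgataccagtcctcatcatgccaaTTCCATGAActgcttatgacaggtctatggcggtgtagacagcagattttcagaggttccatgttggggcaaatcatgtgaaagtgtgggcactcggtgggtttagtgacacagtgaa
Element 9 (chr13:56488010-56488209, 5.85 kb upstream): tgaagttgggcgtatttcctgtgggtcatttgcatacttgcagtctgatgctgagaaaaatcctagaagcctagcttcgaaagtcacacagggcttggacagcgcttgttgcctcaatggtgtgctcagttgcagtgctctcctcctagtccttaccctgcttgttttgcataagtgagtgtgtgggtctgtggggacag
Element 8 (chr13:56482344-56482543, promoter): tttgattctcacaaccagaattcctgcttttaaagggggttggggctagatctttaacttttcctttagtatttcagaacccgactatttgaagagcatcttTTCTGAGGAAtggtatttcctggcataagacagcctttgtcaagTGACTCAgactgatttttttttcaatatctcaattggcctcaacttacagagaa
Element 7 (chr13:56476974-56477173, 5.18 kb downstream): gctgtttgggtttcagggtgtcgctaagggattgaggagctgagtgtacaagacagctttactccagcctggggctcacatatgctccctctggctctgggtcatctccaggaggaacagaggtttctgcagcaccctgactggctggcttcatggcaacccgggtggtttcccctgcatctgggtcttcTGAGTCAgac
Element 5 (chr13:56468855-56469054, 13.3 kb downstream): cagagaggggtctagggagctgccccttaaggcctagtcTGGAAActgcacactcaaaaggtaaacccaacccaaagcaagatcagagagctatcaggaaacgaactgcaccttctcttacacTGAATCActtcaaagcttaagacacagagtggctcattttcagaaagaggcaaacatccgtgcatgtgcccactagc

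Peaks around Il9 lay at distal places and, in 1 library, at the promoter, and no peak lay within the gene itself. Of the 11 elements, 6 were called in all 4 libraries, 2 in 3 libraries, 1 in 2 libraries and 2 in 1 library. No element was called in both libraries with IL-4 and in neither without, a pattern found in 2.60% of all merged regions, and none was called in the reverse pattern, found in 0.699%. Regions called in all 4 libraries made up 51.0% of all merged regions and those called in 1 library 21.6%. These counts are near what the shares over all regions give for 11 regions, and nothing particular to the locus is read from them. Element 5, a shared element 13.3 kb downstream of the start site, stood higher in both libraries with IL-4 than in either library without by both measures used below, and elements 7 and 10 did so by 1 measure each. Among all regions called in 4 libraries, 19.7% did so by −log10 q and 11.0% by relative height. The share that did so by both measures was not computed. An exact permutation test of 2 libraries against 2 cannot give a two-sided p under 0.333, so by that test no difference described here could pass a threshold of 0.05.

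Each deposited peak carried its −log10 q and the number of fragments that overlapped at its summit (its height), as inferred from the range of the values. Neither is scaled for depth, and how many reads each library had is unknown. The standing of a peak is therefore given as the percent of peaks in the same list with a higher −log10 q, so that a low percent is a high standing. Heights are also given as a relative height, which is the height divided by the median height, in the same library, of the 47767 regions called in all 4 libraries. Those medians were 97 and 39 fragments in replicates 1 and 2 without IL-4, and 94 and 68 in replicates 1 and 2 with IL-4. The lists held between 56645 and 78670 peaks, and the shortest was that of replicate 2 without IL-4. A place without a peak is one at which nothing passed the caller's threshold at that unknown depth.

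**Figure D1:**
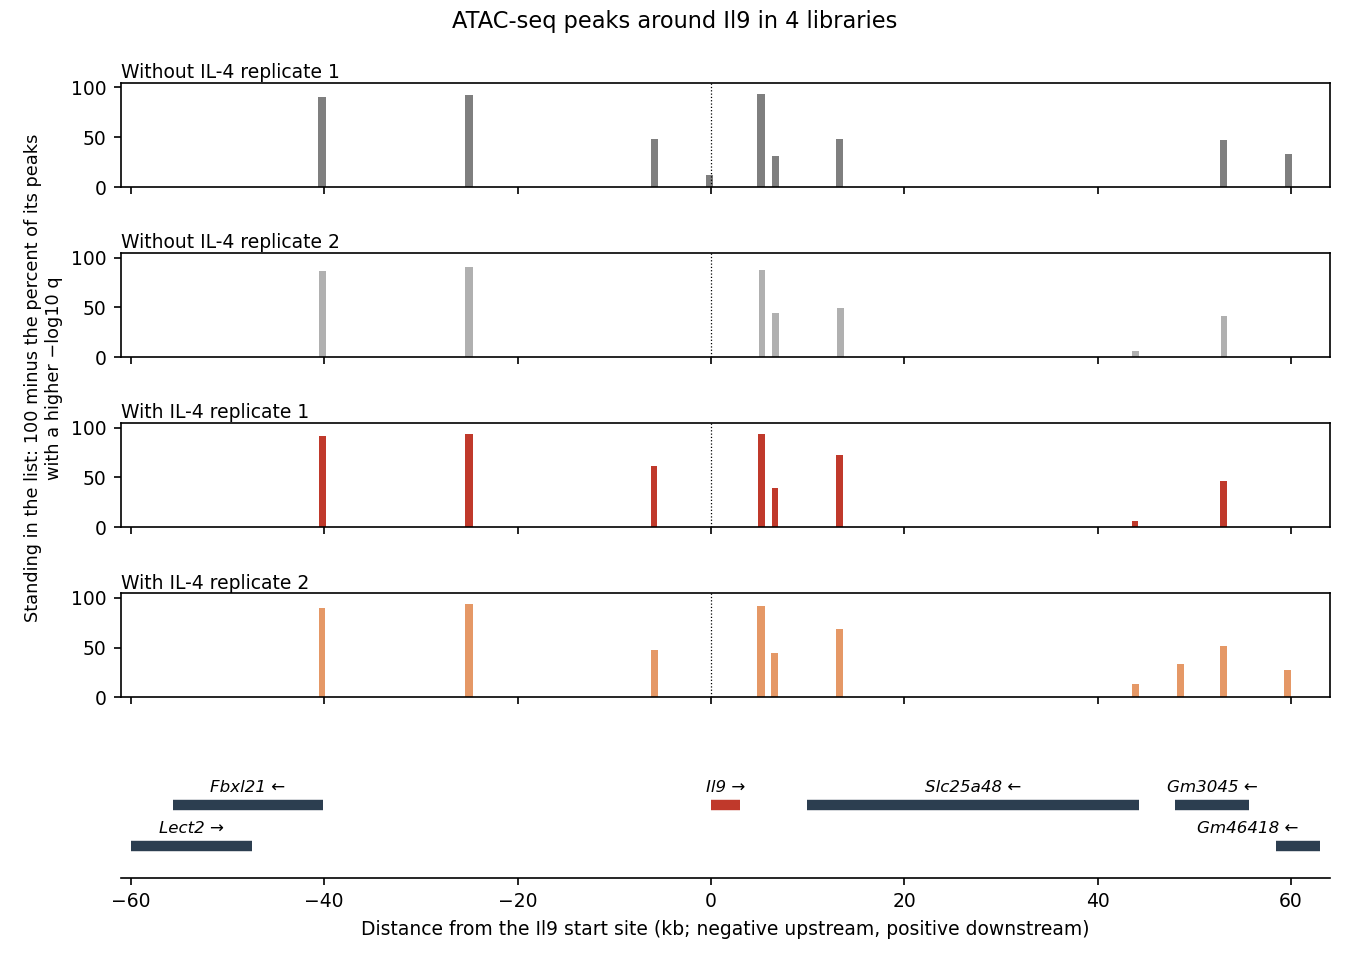
Peaks around Il9 in the 4 libraries. The x axis gives the distance from the Il9 start site in kb (negative upstream), each bar is a peak, drawn wider than it is where it would be too thin to see, and the y axis gives 100 minus the percent of peaks in the same list with a higher −log10 q. Bars below show RefSeq genes with arrows for their direction. Elements 7, 10 and 11 stand near the top of every list, and a bar just upstream of the start site is seen in a single library, where it is low.

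The promoter of Il9 carried a weak peak in 1 of the 4 libraries, and that library was without IL-4. Element 8 ran from 56482267 to 56482619 in replicate 1 without IL-4, upstream of the transcribed part, and its centre lay 186 bases from the RefSeq start site. Its height was 18 fragments and its −log10 q 5.24, and 88.1% of the peaks in that list had a higher −log10 q. Replicate 2 without IL-4 and both libraries with IL-4 had no peak in the promoter, taken as 1 kb before the start site to 0.5 kb after it. Among 21774 protein-coding genes, 58.2% had a promoter peak in all 4 libraries, 2.23% in 1 library and 35.5% in none. Because the call rested on 1 library, no library with a promoter peak was left without it, and none was left when each list was shortened to the length of the shortest.

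The body of Il9 held no peak. The gene has 5 exons, of which exon 1 (56482118 to 56482257) holds the start codon and exon 5 (56479277 to 56479482) the stop codon, and none of the 5 was touched by a peak in any library. The primers with which the study measured Il9 mRNA matched the transcript once each. The forward primer, ATGTTGGTGACATACATCCTTGC, begins at the start codon, at base 27 of the RefSeq transcript. The reverse primer, TGACGGTGGATCATCCTTCAG, spans the junction of exons 1 and 2 and ends the amplicon at base 155. The stretch that this amplicon reports on was thus outside any peak with and without IL-4.

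The strongest element downstream of Il9 lay between Il9 and Slc25a48, in no annotated gene. Element 7 spanned 56476667 to 56477479 and was centred 5184 bases from the start site, beyond the end of the gene. Its height was 380 and 138 fragments in replicates 1 and 2 without IL-4, and 377 and 277 in replicates 1 and 2 with IL-4. Only 6.96% and 12.6% of the peaks stood higher by −log10 q without IL-4, against 5.92% and 8.57% with IL-4. In relative height it was 3.92 and 3.54 without IL-4, against 4.01 and 4.07 with IL-4. By relative height the libraries with IL-4 thus lay above those without by a small margin, whereas by −log10 q the conditions overlapped (exact permutation test, two-sided, p = 0.667). The mean relative heights were 3.73 ± 0.268 (SD, n = 2) and 4.04 ± 0.0445 (SD, n = 2), a ratio of 1.08 (exact permutation test, two-sided, p = 0.333). A larger ratio was found in 22.6% of the regions called in all 4 libraries.

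The strongest element upstream lay 25027 bases from the start site, also between genes. Element 10 spanned 56506876 to 56507693, and its peak was nearly as wide in every library, from 784 to 796 bases. The heights were 345 and 171 fragments without IL-4, against 354 and 321 with IL-4 (replicates 1 and 2 of each). Its −log10 q was exceeded in 7.79% and 9.26% of peaks without IL-4, against 6.48% and 6.81% with IL-4. The mean difference was -1.88 percentage points (exact permutation test, two-sided, p = 0.333). A lower difference was found in 51.4% of the regions called in all 4 libraries, so that the difference at element 10 was near that of the typical shared region. Relative height did not separate the conditions: it was 3.56 and 4.38 without IL-4, against 3.77 and 4.72 with IL-4, and the ratio of the means was 1.07 (exact permutation test, two-sided, p = 0.667).

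A further strong element stood at the start of Fbxl21, which encodes an F-box protein linked to the turnover of clock proteins. Element 11 (56522076 to 56522850) covered a start site of Fbxl21, 40206 bases upstream of that of Il9. Its heights were 303 and 136 fragments without IL-4, against 297 and 243 with IL-4. The relative heights of 3.12 and 3.49 without IL-4, against 3.16 and 3.57 with IL-4 overlapped, with a ratio of the means of 1.02. Elements 7, 10 and 11 each took between 24.1% and 32.4% of the summed height of the 6 shared elements in every library.

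Element 5 was the shared element that differed most between conditions. It spanned 56468650 to 56469259 in an intron of Slc25a48, a member of the mitochondrial carrier family, centred 13303 bases downstream of where Il9 starts. Its height was 41 and 25 fragments in replicates 1 and 2 without IL-4, and 84 and 64 in replicates 1 and 2 with IL-4. The −log10 q was 23.57 and 14.95 without IL-4, against 63.94 and 47.72 with IL-4. Peaks that stood higher made up 51.6% and 50.6% of the list without IL-4, against 27.8% and 31.4% with IL-4, and the groups did not overlap. The difference of the mean standing was -21.5 percentage points, beside a pooled SD of 1.85 between replicates (exact permutation test, two-sided, p = 0.333). A lower difference was found in 1.85% of the regions called in all 4 libraries.

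The same order held for height. Relative heights of element 5 were 0.423 and 0.641 without IL-4, against 0.894 and 0.941 with IL-4, which brought the element from below the typical shared region to near it. The means were 0.532 ± 0.154 (SD, n = 2) and 0.917 ± 0.0336 (SD, n = 2), and their ratio was 1.72 (exact permutation test, two-sided, p = 0.333). Among the 47767 regions called in all 4 libraries, 0.607% had a larger ratio, and the 5th and 95th percentiles of the ratio were 0.714 and 1.31. Element 5 was picked because its ratio was the largest of the 6 shared elements. Neither this share nor the one given for its standing is therefore that of an element named beforehand. Replicate 1 with IL-4 and replicate 1 without had close median heights (94 and 97), and there the ratio was 2.11, whereas between the libraries numbered 2 it was 1.47. Replicate 1 without IL-4, the lowest, weighed on this value: without it the ratio was 1.43 and 6.89% of the shared regions had a larger one. Without replicate 2 without IL-4, replicate 1 with IL-4 or replicate 2 with IL-4, those shares were 0.331%, 0.760% and 1.29%. As a share of the summed height of the 6 shared elements, element 5 took 3.50% and 4.70% without IL-4, against 6.89% and 6.34% with IL-4.

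**Figure D2:**
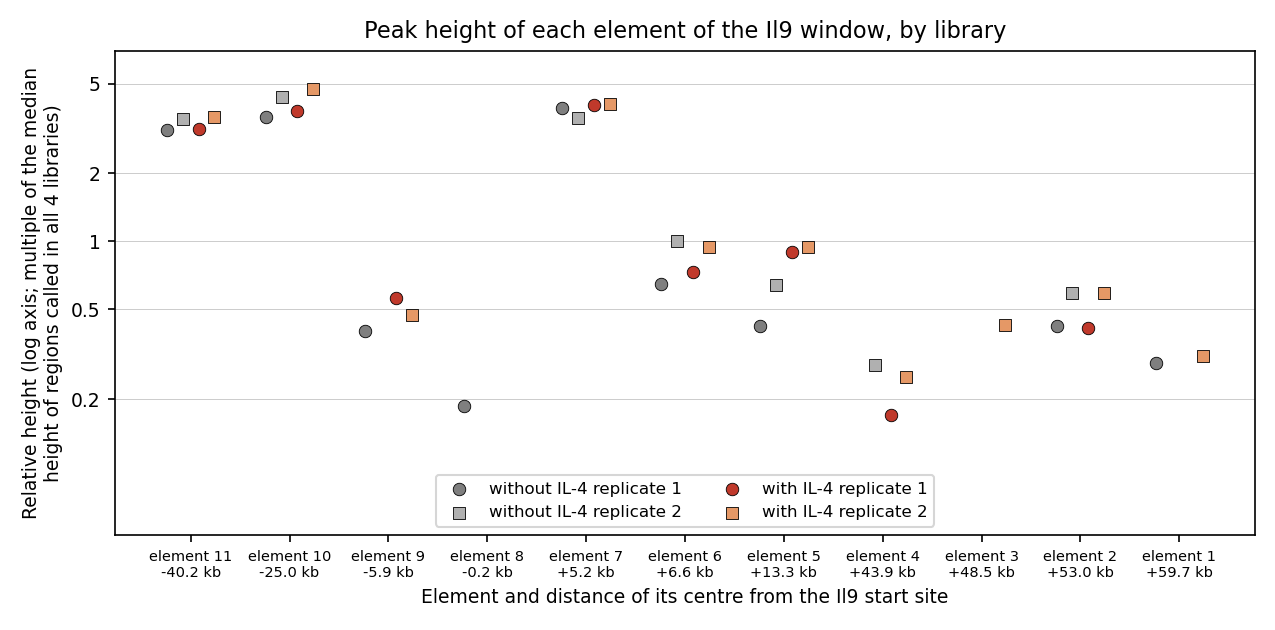
Relative height of the peak of each element in each library. The x axis lists the elements by the distance of their centre from the Il9 start site, and the y axis, logarithmic, gives the height as a multiple of the median height of the regions called in all 4 libraries. Grey points are libraries without IL-4, coloured points libraries with IL-4, circles replicate 1 and squares replicate 2, and a missing point is a library without a peak. At element 5 both coloured points (0.894 and 0.941) lie above both grey points (0.423 and 0.641).

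Elements 2, 6 and 11 did not separate by condition in either measure. Element 2 (56428963 to 56429492), 53.0 kb downstream and over an exon of Gm3045, had heights of 41 and 23 fragments without IL-4, against 39 and 40 with IL-4. The gene Gm3045 is a lncRNA in RefSeq and a protein-coding gene in GENCODE. Element 6 (56475432 to 56475892) lay 774 bases from element 7 and had heights of 63 and 39 fragments without IL-4, against 69 and 64 with IL-4. By height, 37.6% to 44.1% of the peaks in the same list stood above element 6, but by −log10 q 55.2% to 68.4% did, so that its 2 deposited values placed it differently in every library. The ratios of the mean relative heights were 0.991 for element 2 and 1.02 for element 6. At elements 2, 5, 6, 10 and 11, all shared elements but element 7, the libraries numbered 2 had the higher relative height in both conditions. At element 7 this was so with IL-4 and not without. Within each number, relative height was higher with IL-4 in both pairs at elements 5, 7, 10 and 11, in 1 pair at element 6 and in 0 pairs at element 2. The shares of all shared regions with these patterns were not computed, and the counts are not read as a property of the locus.

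Counted over the 6 shared elements, the standing by −log10 q was better in both libraries with IL-4 at 2 (elements 5 and 10) and worse in both at 0. The corresponding shares of all regions called in 4 libraries were 19.7% and 5.18%. Relative height was higher in both libraries with IL-4 at 2 (elements 5 and 7) and lower in both at 0, where the shares of all such regions were 11.0% and 12.3%. These counts are few, and neither is read as a property of the locus.

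**Figure D3:**
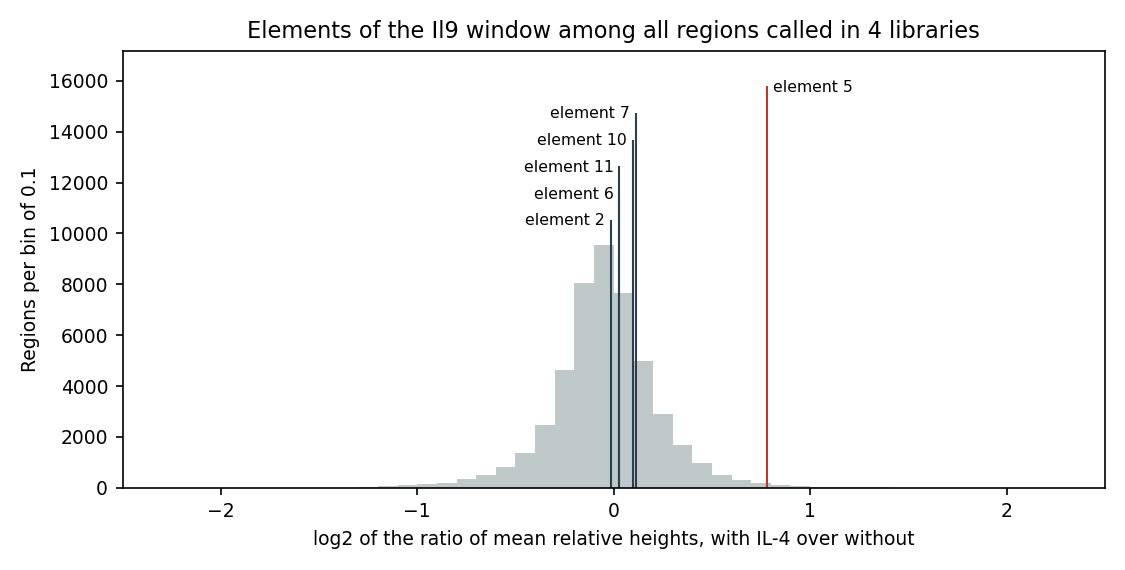
The 6 shared elements of the Il9 window among all 47767 regions called in 4 libraries. The x axis is the log2 of the ratio of mean relative heights with IL-4 over without, the grey bars count regions per bin of 0.1, values beyond the axis are placed in the outermost bins, and the height of a marking line has no meaning. Elements 2, 6, 7, 10 and 11 lie between ratios of 0.991 and 1.08, and element 5 lies at 1.72.

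The elements called in some libraries were weaker than the strong shared ones. Element 9 (56487934 to 56488285), 5.85 kb upstream and between genes, had a peak of 39 fragments in replicate 1 without IL-4 and of 53 and 32 fragments in replicates 1 and 2 with IL-4. It was not called in replicate 2 without IL-4, the library with the lowest median height, and its relative heights were 0.402 without IL-4, against 0.564 and 0.471 with IL-4. Element 4 (56438176 to 56438617) covered a start site of Slc25a48, 43.9 kb downstream of that of Il9, and had 11 fragments in replicate 2 without IL-4, against 16 and 17 with IL-4. These were among the lowest peaks, with 87.0% to 94.1% of the same list standing higher. Element 1 (56422463 to 56422723), over an exon of the lncRNA Gm46418, was called in replicate 1 without IL-4 and replicate 2 with IL-4, at 28 and 21 fragments. Element 3 (56433627 to 56433804), over an exon of Gm3045, was called in replicate 2 with IL-4, at 29 fragments.

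Summed over the window of 122981 bases, 9 and 7 peaks were called in replicates 1 and 2 without IL-4 and 8 and 10 in replicates 1 and 2 with IL-4. The means were 8.00 ± 1.41 (SD, n = 2) and 9.0 ± 1.41 (SD, n = 2), and they differed by less than their SD (exact permutation test, two-sided, p = 0.667). Bases inside these peaks numbered 4257 and 3358 in the former and 4390 and 4495 in the latter, with means of 3808 ± 636 (SD, n = 2) and 4442 ± 74.2 (SD, n = 2). The difference of 635 bases (exact permutation test, two-sided, p = 0.333) rested largely on replicate 2 without IL-4, since it was 186 bases without that library and 1084.5 bases without replicate 1. The covered share of the window was 3.46% and 2.73% without IL-4, against 3.57% and 3.66% with IL-4, above the 1.49%, 1.07%, 1.54% and 1.32% of the assembled chromosomes that the same lists covered.

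Of the 6 genes whose records reach into the window, Fbxl21 was the one with a promoter peak in all 4 libraries. Slc25a48 had one in 3 libraries, all but replicate 1 without IL-4, and Il9 in 1. The lncRNAs Gm46418 and Gm3045 and the gene Lect2, which encodes a chemotactic protein made by the liver, had none in any library. A list of genes for signals and factors that act on Il9 in either direction, with the IL-9 receptor gene Il9r, was also examined. Of these 29 genes, 28 had a promoter peak in all 4 libraries, against 58.2% of all protein-coding genes. Among the 28 were the receptor gene Il4ra and its signalling genes Jak1, Jak3 and Stat6, the TGF-β pathway genes Tgfbr1, Tgfbr2, Smad2, Smad3 and Smad4, and the IL-2 pathway genes Il2ra, Il2rb, Il2rg, Stat5a and Stat5b. The transcription factor genes Irf4, Batf, Batf3, Etv5, Gata3, Foxo1, Nfatc1, Nfatc2, Rela, Runx1, Runx3, Bcl6 and Id3 and the receptor gene Il9r belonged to them too. Bcl6 and Id3 are known as repressors of Il9, and Il9r encodes the receptor for the cytokine, so that the count is not one of inducers. The exception was Spi1, which encodes PU.1 and had a promoter peak in 3 libraries, all but replicate 2 with IL-4.

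Il9 was next set beside 17 other cytokine genes, each with 60 kb on each side. By the share of the window inside peaks, the 3 most like Il9 over the 4 libraries were Il24, Il2 and Il17f, at distances (the root of the summed squared differences, in percentage points) of 0.778, 1.12 and 1.26. Il24, a cytokine of the IL-10 family, had 3.35% and 2.40% without IL-4, against 3.59% and 2.96% with IL-4. Il2, the T cell growth factor gene, had 4.19% and 2.60%, and 3.96% and 4.40%. Il17f, a Th17 cytokine gene, had 3.88% and 2.12%, and 3.71% and 2.65%. The Th2 cytokine genes Il4 and Il13, whose windows overlap, had over 6.5% in 3 of the 4 libraries, with 6.93% and 4.16% without IL-4, against 9.12% and 7.35% with IL-4 for Il4. Elements called in both libraries with IL-4 and in neither without numbered 1 or 2 in the windows of Il4, Il13, Il2, Il22, Il21, Tnf and Lif. They numbered 0 at Il9 and at the other 10 genes, among them Il24 and Il17f. Elements called in both libraries without IL-4 and in neither with numbered 1 each at Il21, Tnf and Tgfb1 and 0 at the other genes, Il9 included. Over all merged regions these patterns made up 2.60% and 0.699%. The windows held from 4 (Il6) to 36 (Tnf) elements, with 11 at Il9. These counts are few, and none is read as a difference between genes. The windows of Il2 and Il21 overlap, as do those of Il3 and Csf2, of Il17a and Il17f, and of Il5 with Il4 and Il13, so that an element can be counted at more than 1 gene. A promoter peak was called in all 4 libraries at Il6, Il21, Csf2, Ifng, Tnf, Lif and Tgfb1, in 3 at Il4, in 1 at Il9, Il2, Il5, Il17a, Il17f and Il24, and in none at Il3, Il10, Il13 and Il22.

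**Figure D4:**
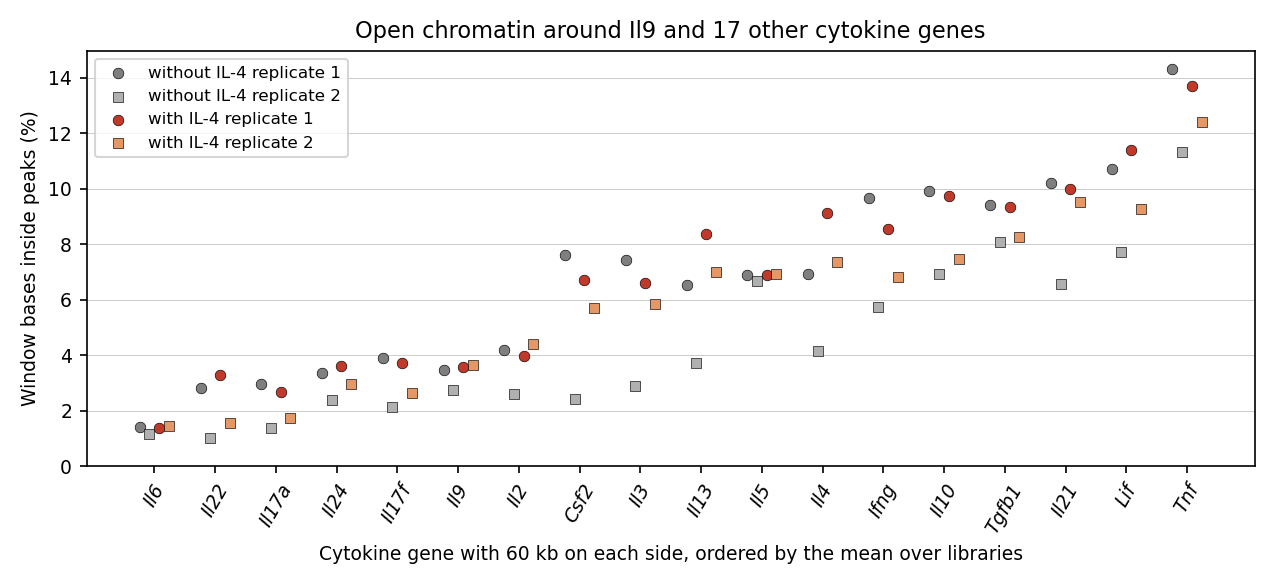
Share of window bases inside peaks for Il9 and 17 other cytokine genes. The x axis lists each gene with 60 kb on each side, ordered by the mean over libraries, the y axis gives the percent of window bases inside peaks, and each point is a library, grey without IL-4 and coloured with IL-4. Il9 lies between 2.73% and 3.66%, near Il24, Il17f and Il2 and below Il4 and Il13 in each library.

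Binding motifs were searched on both strands of the 200 bases around the centre of each element, and a match describes letters and not binding. A STAT6-type match, TTC and GAA with 4 bases between them, was present in 1 of the 11 elements, the promoter element 8, where it reads TTCTGAGGAA on the strand of Il9 at bases 103 to 112 of the sequence shown. Such a match was present in 5.84% of all merged regions. An AP-1 match, TGANTCA, was present in 3 of the 11 elements and in 12.9% of all regions: in element 8 at bases 147 to 153, in element 7 at bases 191 to 197, and in element 5 at bases 124 to 130 of the sequences shown. The STAT5 type, TTC and GAA with 3 bases between them, was present within these 200 bases in 1 of the 11 elements, element 10, as TTCCATGAA at bases 83 to 91, and in 8.46% of all regions. An NFAT match, TGGAAA, was present in element 5 at bases 40 to 45, and in 16.7% of all regions. A RUNX match, TGTGGT, was present in elements 1, 3 and 10, and in 21.4% of all regions.

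Within these 200 bases no element held a match to the GATA motif AGATAA (7.86% of all regions), the PU.1 motif GAGGAAGT (2.76%) or the SMAD motif GTCTAGAC (0.235%). The same holds for the composites of BATF and IRF proteins, GAAA directly before an AP-1 match (0.384%) and TTTC with 4 bases before one (0.308%). Each composite contains an AP-1 match.

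A window of 600 bases around each centre, chosen after these matches were seen, held more matches, and the shares of all regions were larger too. A GATA match was present in 2 of the 11 windows (22.9% of all regions). One of these lay inside element 5, from 56469086 to 56469091 on the reverse strand, and the other lay beside element 9. AP-1 was present in 4 windows (24.4% of all regions), in each case inside the element, namely elements 5, 7, 8 and 9. In element 9 it reads TGACTCA from 56488213 to 56488219 on the forward strand. A STAT5-type match was present in 4 windows (19.7% of all regions) and lay inside elements 2, 8 and 10. It reads TTCCGGGAA in element 2, from 56429429 to 56429437, and TTCCATGAA in element 8, from 56482549 to 56482557, both on the forward strand. A STAT6-type match was present in 2 windows (15.2% of all regions), inside element 8 and inside element 2, where it reads TTCCCAGGAA from 56429352 to 56429361. RUNX matches were present in 6 windows (43.6% of all regions), inside elements 1, 3, 4, 7 and 10, and NFAT matches in 4 (40.2%), inside elements 1, 5, 8 and 10. The PU.1 and SMAD motifs and both composites had no match in the wider window either (6.27%, 0.646%, 0.710% and 0.557% of all regions).

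The G and C content of the promoter element, in its central 200 bases, also differed from the rest. It was 38%, against 46.5% to 67.0% in the other elements, 67.0% at the start sites of Slc25a48 and Fbxl21, and a median of 49.5% over all regions. Its 1 CpG was near the 2 CpG held by each of elements 5, 6, 7 and 10.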

How the data were processed

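The authors sequenced ATAC-seq libraries from 50000 cells each on the BGISEQ-500 platform, mapped paired reads to mm10 with Bowtie2 (2.2.5), kept mapped pairs and called peaks in each library with MACS2 (2.1.2). The submitters' notes also name bedtools (2.16.2). Correction for the transposase offset and the removal of duplicate or mitochondrial reads are not given in the sources used here. Each deposited peak has a position, a −log10 q-value and a height of the pileup signal. The files have no header, and the authors' units were inferred from the values, whose lowest −log10 q (1.310 to 1.312) lies just above that of a q-value of 0.05. The depth is unknown, neither value is scaled for it, and calls carry no interval.

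Positions were converted to count from 1. Peaks sharing at least 1 base were merged, and a library called an element when its peak shared at least 1 base with it. The promoter was 1 kb upstream to 0.5 kb downstream of a RefSeq start site (for Il9, also GENCODE's). Values were compared by exact permutation over libraries. Sequences came from GRCm38 (RefSeq). Python 3.11.15, numpy 2.4.6, pandas 2.3.3, pysam 0.24.0 and samtools 1.23.1 were used, and merging and calling were tested on simulated lists. Elements to describe were those at the gene or promoter, those called in 1 condition, the 5 best-ranked shared ones and the nearest on each side. The values of the other elements are given because the window holds few. The locus, lists and motifs were chosen with earlier results of these data known, and relative height and the emphasis on element 5 after its values were seen.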

Additional observations from a re-analysis of the deposited data

How the results depend on the processing

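Of 76 alternative values, 61 kept their direction or stayed within the limits set for counts and values without a test, and 15 did not. No p fell below 0.333 in any setting, the smallest that the exact permutation test over 4 libraries can give. With the upper 50% of each list, 3 elements were called in all 4 libraries, 1 was called only with IL-4 (element 5, whose peaks without IL-4 stood just under that limit, with 51.6% and 50.6% of peaks higher) and 0 libraries had a promoter peak. With lists of equal length, 0 libraries had a promoter peak and the median difference in standing over the shared elements was -1.20 percentage points in place of -3.29. With full lists, 50.5% of all regions called in 4 libraries had a difference lower than the -1.99 of element 11. A negative difference was thus common among shared regions. With 30 kb on each side the difference in number of peaks was 0, and when peaks had to cover 50% of an element, 1 element (element 4) was called only with IL-4. The shares of all regions called in 1 condition were not computed for the altered settings or with a library left out. Counts under these settings are therefore not read as a property of the locus. Leaving out each library in turn, elements called only with IL-4 numbered 0 to 1, those only without 0 to 1, libraries with a promoter peak 0 to 1, the difference in peaks 0 to 2.00, and the median difference in standing -4.20 to -1.74. The ratio at element 5 ranged from 1.43 to 2.17 in the same way and was 2.24 with unscaled heights (these alternatives were chosen after the values were seen). Nothing in the labels says that equal replicate numbers pair the libraries. With the number as a block, the ratio at element 5 was 1.79 and the difference in bases 635 (exact sign-flip p = 0.50 for each, the smallest possible), and the difference in peaks was 1.00 (exact sign-flip p = 1.00). Depth is unknown, and its part in the missing calls at elements 8 and 9 was not tested. Element 9 lacked a call in replicate 2 without IL-4, whose median height was 39. Element 8 was called in replicate 1 without IL-4, whose median height was 97. It lacked a call in replicate 2 without IL-4 (39) and in replicates 1 and 2 with IL-4 (94 and 68).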
